A study of Homo sapiens with 12 samples.

Results

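The mRNAs of 7 genes that store, import or regulate iron were followed in cultured human AC16 cells and in the exosomes these cells shed. The genes were the ferritin heavy chain FTH1, the ferritin light chain FTL, the transferrin receptor TFRC, the iron regulatory protein genes ACO1 and IREB2, the ferritin autophagy receptor NCOA4 and the endosomal iron reductase STEAP3. They were chosen by name for their roles in cellular iron metabolism, with no threshold on a measured value, though earlier results of these data were known. All 7 were among the 15414 genes listed in the deposited count tables, in cells as well as in exosomes.

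AC16 is an established line obtained by fusing ventricular heart muscle cells with a transformed fibroblast line, and exosomes are small vesicles released by cells. The 12 libraries fell into 4 groups of 3: Con cells, Ang cells, Con exosomes and Ang exosomes. The series concerns exosomes of hypertrophic cardiomyocytes, but the labels give only the words Con and Ang, with no agent, dose or time spelled out. Nothing in the labels ties the libraries to different culture dishes. The p-values therefore measure only how far these libraries scatter, and that scatter may be technical.

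Ferritin is a hollow shell of heavy and light chains. The heavy chain oxidises iron on its way in, and the light chain helps to lay down the mineral core. TFRC takes up transferrin-bound iron by endocytosis, and STEAP3 reduces the released iron inside the endosome. When iron is scarce, the iron regulatory proteins encoded by ACO1 and IREB2 bind a short hairpin, the iron-responsive element. A hairpin near the start of a ferritin mRNA then blocks its translation, whereas hairpins in the tail of the TFRC mRNA protect it from decay. With iron in supply, the ACO1 protein carries an iron-sulfur cluster and works as the cytosolic aconitase, and the IREB2 protein is degraded. NCOA4 delivers ferritin to the lysosome, where the stored iron is set free.

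The hairpin elements are shown because they are the sequence that the ferritin and TFRC mRNAs share and through which ACO1 and IREB2 act on them. Transcripts of GENCODE release 29 on GRCh38 were searched on the transcript strand only, for a C, then 5 bases, then CAGTG and any base, then 5 bases that pair with the first 5 (G-T pairs allowed). FTH1 had 1 match in its 5′ untranslated region, at chr11:61967575-61967601 on the minus strand. FTL had 1 match in its 5′ untranslated region, at chr19:48965336-48965362 on the plus strand. TFRC had 4 matches, all in its 3′ untranslated region on the minus strand. In transcript order they lay at chr3:196050980-196051006, chr3:196050576-196050602, chr3:196050511-196050537 and chr3:196050464-196050490. Each is printed 5′ to 3′ as DNA letters with 5 flanking bases on either side, and the capitals mark the 6-base loop.
FTH1: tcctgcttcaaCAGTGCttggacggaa
FTL: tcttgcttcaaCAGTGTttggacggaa
TFRC 1: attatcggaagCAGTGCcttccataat
TFRC 2: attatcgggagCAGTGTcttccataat
TFRC 3: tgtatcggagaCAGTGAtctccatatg
TFRC 4: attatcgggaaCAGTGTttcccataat

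The FTH1 and FTL stretches were identical at 25 of 27 bases, with the substitutions C3T and C17T from FTH1 to FTL, counted from 1 at the 5′ end of the printed stretch. No match was found in the annotated transcripts of IREB2, ACO1, NCOA4 or STEAP3. The pattern occurred in 538 of 57131 protein-coding transcripts searched (0.942%). A match is a match of letters, and no binding was measured.

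Total gene reads were 9202471 to 11212674 in the cell libraries, 717263 to 745311 in the Con exosome libraries and 535442 to 587783 in the Ang exosome libraries. Cells and exosomes were prepared with different extraction and library kits, so that compartment and kit cannot be told apart. CPM are reads of the gene per 1e6 gene reads. They are on raw totals for the marker sums of this paragraph and with trimmed mean scaling elsewhere, so that the 2 scales differ. As to the label of the cells, 9 of 12 cardiomyocyte markers were listed, at a sum of 32.6 to 39.3 CPM, most of it GATA4. MYH6, MYL2 and MYL7 were not listed, TNNT2 had 0 to 9 reads, ACTC1 had 0 to 5, and GATA4 was the sole marker of the list found in exosomes. All 10 fibroblast markers were listed, at 6118 to 7521 CPM in cells and 5189 to 6809 in exosomes. All 8 exosome markers were listed in the cells (1333 to 1419 CPM) and in the exosomes (893.7 to 1039 CPM). Of the other lists, hepatocyte and serum markers summed to 3.54 to 5.77 CPM in cells and were not listed in exosomes, and immune markers, mostly CD68, summed to 15.2 to 74.1 CPM in cells and 3.60 to 172 in exosomes. Blood markers summed to 0.984 to 2.01 CPM in cells and to 0 to 38.9 in exosomes, where 29, 4 and 0 haemoglobin reads were counted in the Con libraries 1, 2 and 3, and 0 in every Ang library.

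The main pattern was a split by compartment. The ferritin mRNAs FTH1 and FTL made up more of the exosome libraries than of the cell libraries, and the mRNAs for uptake, TFRC and STEAP3, made up less. IREB2 was also lower in exosomes, by a smaller amount and less firmly. ACO1 and NCOA4 did not pass the test between compartments. None of the 7 passed the test between Ang and Con, in cells or in exosomes. CPM are shares of a library, so that more of an mRNA and less of the other RNA cannot be told apart, nor can fewer cells of a type and less RNA per cell. The values by library are in the plot of CPM for the 7 genes.

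**Figure D1:**
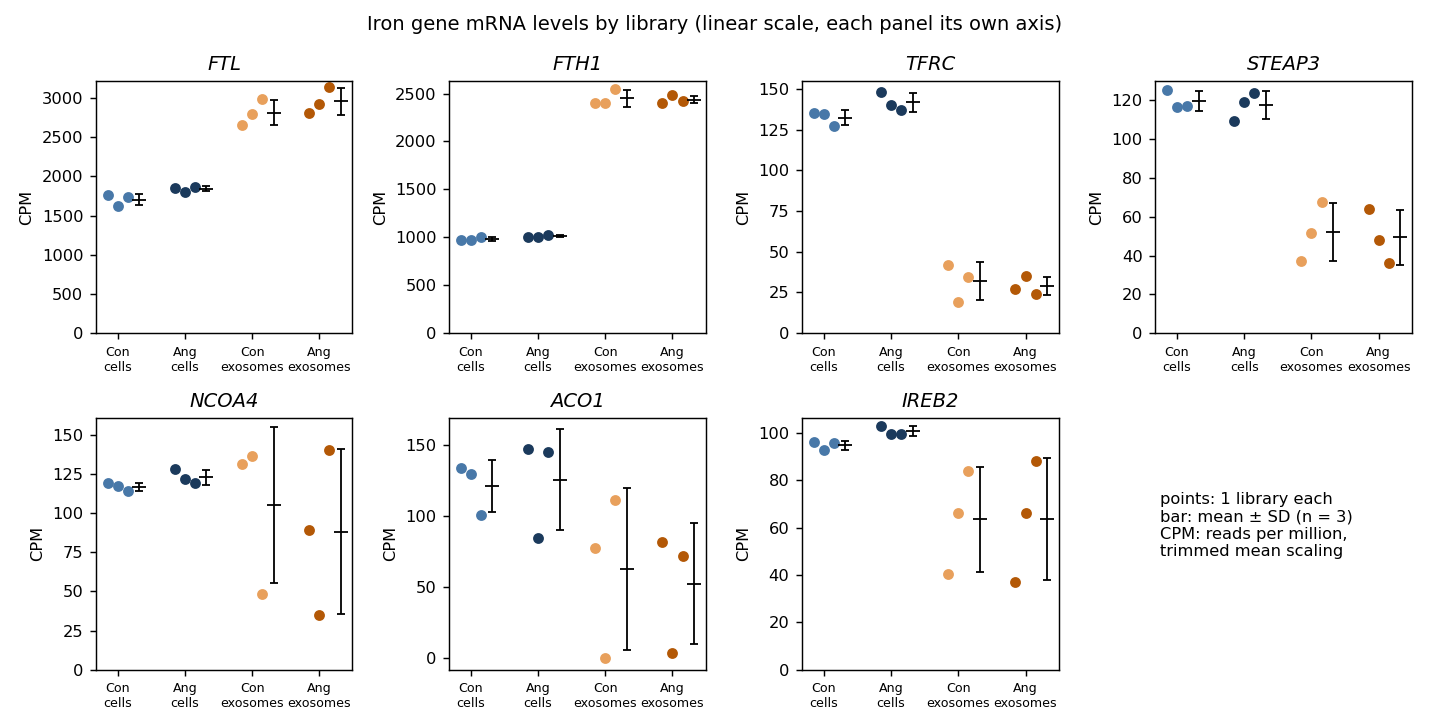
Expression of the 7 iron genes in CPM (trimmed mean scaling, linear axis, a panel with its own axis for each gene) in Con and Ang cells and exosomes; each point is 1 library and the bar is the mean ± SD of 3. FTH1 and FTL points of exosomes lie above all cell points, TFRC and STEAP3 points of exosomes lie below all cell points, and the Con and Ang points of a compartment lie close together for FTH1 and FTL.

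FTH1, on chromosome 11 (61959718 to 61967660, minus strand), encodes the chain that oxidises iron. It had 968, 970.2 and 1005 CPM in Con cells and 1007, 1007 and 1025 CPM in Ang cells. In exosomes it had 2400.0, 2397 and 2551 CPM in Con and 2403, 2482 and 2427 CPM in Ang. Every exosome library was thus higher than every cell library, with means of 2443 ± 61.7 CPM (SD, n = 6) against 997 ± 22.9 (SD, n = 6). The fitted log2 fold change was 1.29 ± 0.04996 (SE), or 2.45-fold, with an adjusted p of 2.33e-09 (edgeR's quasi-likelihood test over 11811 genes, Benjamini-Hochberg). Within Con alone it was 1.32 and within Ang alone 1.27. The read counts behind these values were 9751 to 12070 in cells and 1212 to 1699 in exosomes, and the spread between the 6 exosome libraries (2.52% of the mean) was about that expected from counting alone (2.61%).

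FTL, on chromosome 19 (48965301 to 48966878, plus strand), encodes the light chain. It had 1762, 1619 and 1732 CPM in Con cells, 1856, 1807 and 1866 in Ang cells, 2662, 2799 and 2987 in Con exosomes and 2811, 2923 and 3142 in Ang exosomes. Again no exosome library reached down to a cell library. The means were 2887 ± 168 CPM (SD, n = 6) in exosomes and 1774 ± 91.9 (SD, n = 6) in cells, a log2 fold change of 0.70 ± 0.0529 (SE), or 1.63-fold, with an adjusted p of 8.41e-07 (edgeR). It was 0.72 within Con and 0.68 within Ang. FTL was the most abundant of the 7 in every group.

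The 2 ferritin mRNAs were not higher in exosomes by the same factor. There were 1.78 ± 0.0680 FTL reads per FTH1 read in cells (SD, n = 6, range 1.67 to 1.84) and 1.18 ± 0.0608 in exosomes (SD, n = 6, range 1.11 to 1.29). The ranges did not overlap, and an exact two-sided permutation test of the log2 ratio, 6 libraries against 6, gave p = 0.00216, the smallest it can give. This ratio is taken inside each library and does not depend on scaling. Together FTH1 and FTL took 0.296% of gene reads in cells (0.278% to 0.308%) and 0.495% in exosomes (0.472% to 0.519%).

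TFRC, on chromosome 3 (196027183 to 196082189, minus strand), encodes the transferrin receptor. It had 135, 134 and 127 CPM in Con cells and 148, 139.9 and 137 CPM in Ang cells. In exosomes it fell to 41.7, 19.1 and 34.5 CPM in Con and 27.2, 34.9 and 24.0 CPM in Ang. The highest exosome library was below the lowest cell library by a wide margin. The log2 fold change was -2.18 ± 0.191 (SE), or 4.52-fold lower, with an adjusted p of 3.27e-06 (edgeR), and it was -2.06 within Con and -2.30 within Ang. The exosome values rest on 12 to 29 reads per library, and their spread (27.5% of the mean) was close to counting error (23.3%).

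STEAP3, on chromosome 2 (119223831 to 119265652, plus strand), encodes the reductase that acts with TFRC in the endosome. It had 125, 117 and 117 CPM in Con cells, 109, 119 and 124 in Ang cells, 37.4, 51.4 and 67.6 in Con exosomes and 64.1, 47.8 and 36.0 in Ang exosomes. All 6 exosome libraries were below all 6 cell libraries. The log2 fold change was -1.23 ± 0.182 (SE), or 2.34-fold lower, with an adjusted p of 0.000242 (edgeR), on 18 to 45 reads per exosome library. It was -1.20 within Con and -1.25 within Ang.

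Set against each other inside a library, storage and uptake mRNAs stood further apart in exosomes than in cells. There were 7.29 ± 0.377 FTH1 reads per TFRC read in cells (SD, n = 6, range 6.79 to 7.91) and 86.3 ± 24.4 in exosomes (SD, n = 6, range 57.5 to 126). For FTL the figures were 12.96 ± 0.627 (SD, n = 6) in cells and 102 ± 31.2 (SD, n = 6) in exosomes. For each of these 2 ratios the exact two-sided permutation test of 6 libraries against 6 gave p = 0.00216. That outcome was fixed by the values above, and it adds no support to them. Every exosome library was higher for FTH1 and FTL, and lower for TFRC, than every cell library. With the FTL to FTH1 ratio, 3 ratios were tested, and they share the FTH1, FTL and TFRC counts.

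**Figure D2:**
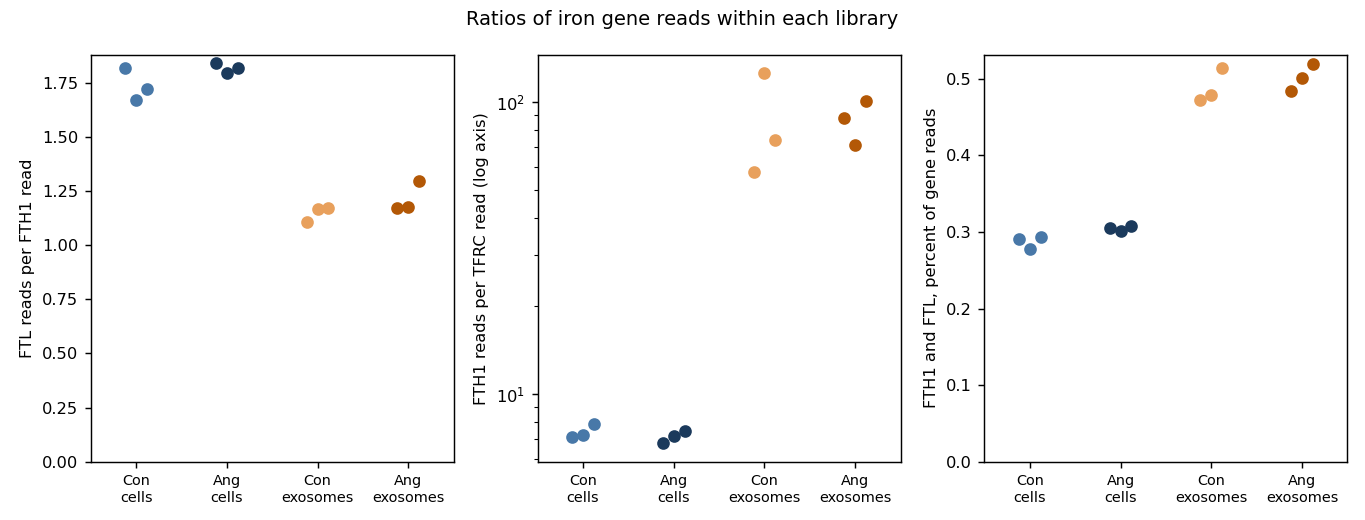
Ratios of read counts inside each of the 12 libraries: FTL reads per FTH1 read (left, linear axis from 0), FTH1 reads per TFRC read (middle, log axis) and the share of gene reads from FTH1 and FTL in percent (right, linear axis from 0). Each point is 1 library; exosome points lie apart from cell points in all 3 panels, at 57.5 to 126 FTH1 reads per TFRC read against 6.79 to 7.91 in cells.

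IREB2, on chromosome 15 (78437431 to 78501456, plus strand), encodes the regulatory protein that is controlled by its own degradation. It had 96.0, 92.6 and 95.9 CPM in Con cells, 103, 99.5 and 99.7 in Ang cells, 40.3, 66.1 and 84.1 in Con exosomes and 36.9, 66.1 and 88.1 in Ang exosomes. The exosome libraries were all lower than the cell libraries, by a narrow margin between the closest libraries. The log2 fold change was -0.62 ± 0.216 (SE), or 1.54-fold lower, with an adjusted p of 0.0388 (edgeR). The call was lost without any 1 of the 6 cell libraries or without exosome Con 1, Con 2, Ang 1 or Ang 2, with adjusted p of 0.0522 to 0.0817 in those fits. It was also lost within Con alone (-0.58, adjusted p = 0.2) and within Ang alone (-0.66, adjusted p = 0.145).

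ACO1, on chromosome 9 (32384603 to 32454769, plus strand), encodes the regulatory protein that doubles as cytosolic aconitase. In cells it had 134, 129 and 100.4 CPM in Con and 147, 84.7 and 145 in Ang, the widest relative spread of the 7. In exosomes it had 77.7, 0 and 111 CPM in Con and 81.5, 3.67 and 72.1 in Ang. The 0 in Con 2 allows a level of up to 4.40 CPM, since 3 reads are the limit that a count of 0 allows (counting error only), and the 3.67 CPM of Ang 2 came from 2 reads. The other 4 exosome libraries had 36 to 74 reads. The log2 fold change of -1.11 ± 0.654 (SE) had an adjusted p of 0.208 (edgeR). Without exosome Con 2 and Ang 2, an alternative chosen after seeing the data, it was -0.54 ± 0.208 (SE), with an adjusted p of 0.068. Such gaps were more frequent in exosomes: among genes whose median was 40 reads or more, 11% of 3454 in exosomes and 2.57% of 11570 in cells fell below that median by more than 4-fold in some library. By the same 4-fold measure ACO1 was the only member with a gap, in exosomes only. The median of ACO1, TFRC and STEAP3 in exosomes was below 40 reads, so these members are not in the class that gave 11%.

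NCOA4, on chromosome 10 (46005088 to 46030714, minus strand), encodes the receptor for ferritin breakdown. It had 119, 117 and 114 CPM in Con cells and 128, 122 and 119 in Ang cells. In exosomes it had 131, 136 and 48.1 CPM in Con and 89.3, 34.9 and 140.2 in Ang. Exosome libraries lay on either side of the cell libraries. The log2 fold change of -0.32 ± 0.295 (SE) had an adjusted p of 0.427 (edgeR), and the interval of 2 SE around it ran from -0.91 to 0.27.

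Between compartments, 5 of the 7 genes were thus called, 2 higher and 3 lower in exosomes, and the same 5 had no overlap between cell and exosome libraries. Calls were common over the whole transcriptome. Of 11811 genes tested, 37.1% were called, 17.6% higher and 19.5% lower, and 23.2% had library ranges without overlap. FTH1 stood at the 91.4th percentile and FTL at the 80.5th of the log2 fold changes of all genes, STEAP3 at the 12.4th, with TFRC lowest at a percentile of 3.81. ACO1 (15.1), IREB2 (29.5) and NCOA4 (42.3) lay between. The plot of log2 fold changes by gene shows the same order in the Con and the Ang libraries for FTH1, FTL, STEAP3 and TFRC.

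**Figure D3:**
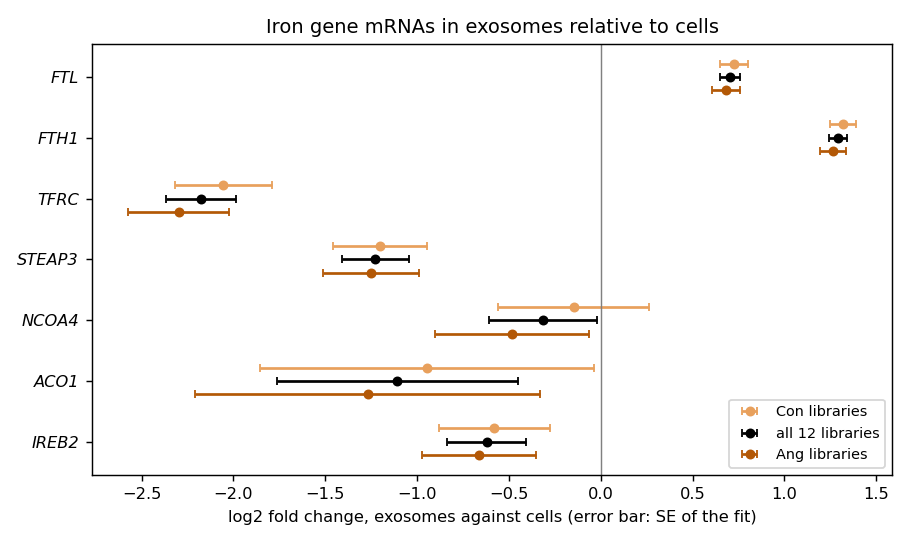
Log2 fold change of the 7 genes in exosomes against cells (horizontal axis) from the fit to 12 libraries, for all libraries (black), for Con (light orange) and for Ang (dark orange); error bars are the SE of the fit. FTH1 (1.29) and FTL (0.70) lie to the right of 0, and TFRC (-2.18), STEAP3 (-1.23) and IREB2 (-0.62) to the left, while the error bars of NCOA4 and ACO1 are wide.

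Transcript length moved with this comparison over all genes. Exon length of the coding transcripts was 878 bases for FTL, 1617 for FTH1, 4079 for NCOA4, 4562 for STEAP3, 5323 for TFRC, 7555 for ACO1 and 9501 for IREB2. The median log2 fold change of exosomes against cells was 0.47 for genes of up to 1000 bases, 0.28 from there to 2000, -0.07 to 4000, -0.32 to 8000 and -0.44 beyond. In its own length class FTH1 was above 84.8% of 1602 genes and FTL above 62.6% of 297. Of the 4223 genes of 4000 to 8000 bases, TFRC was above 4.55%, STEAP3 above 15%, ACO1 above 18.2% and NCOA4 above 50%. IREB2 was above 41.2% of the 1329 longest. These classes use the union of exons over coding transcripts. By the 1 transcript marked as principal in the annotation, NCOA4 (2307 bases), STEAP3 (3915) and IREB2 (6354) would each fall in a shorter class. The part of length in these differences was not tested.

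Sharing of reads with other genes could touch some members. The exons of the FTH1 coding transcripts, untranslated regions included, overlap BEST1 on the other strand over 56.6% of their length. BEST1 had 46 to 102 reads in cells and 0 to 8 in exosomes. STEAP3 shares 11% of its exon length with STEAP3-AS1 on the other strand, which the tables do not list. The annotation names 25 pseudogenes of FTH1, 16 of FTL and 3 of NCOA4, none of them listed, and how the counting treated reads that fit them is not given in the sources used here. Levels of these 3 genes are uncertain to that extent.

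Levels were compared between genes as CPM per kilobase of exon. In cells the order was FTL (2020 ± 105, SD, n = 6), FTH1 (616 ± 14.1), NCOA4 (29.3), STEAP3 (26.0), TFRC (25.7), ACO1 (16.3) and IREB2 (10.3). The ranges of neighbours did not overlap, except for STEAP3 and TFRC. With the length of the principal transcript alone, ACO1 (11.3 to 19.7) and IREB2 (14.6 to 16.2) overlapped in cells as well. In exosomes FTL (3288 ± 191, SD, n = 6) and FTH1 (1511 ± 38.4) led again, followed by NCOA4 (23.7), STEAP3 (11.1), ACO1 (7.64), IREB2 (6.69) and TFRC (5.68). Below FTH1, each neighbouring pair in exosomes from NCOA4 downwards overlapped. By its mean, TFRC stood above ACO1 and IREB2 in Con and in Ang cells and last in Con and in Ang exosomes.

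Ang and Con were then compared inside each compartment, which asks whether these mRNAs differed with the label. In cells, FTL had the smallest p of the 7. Its log2 fold change was 0.11 ± 0.0399 (SE), with an unadjusted p of 0.0399 and an adjusted p of 0.795 over 13331 genes (edgeR). The others were FTH1 at 0.04 ± 0.0318 (SE), TFRC at 0.09 ± 0.0601, IREB2 at 0.08 ± 0.0528, NCOA4 at 0.07 ± 0.0571, ACO1 at 0.04 ± 0.245 and STEAP3 at -0.04 ± 0.0690. None was called by edgeR, where 0% of genes were called, or by DESeq2, where 0.375% were. In edgeR 1 of the 7 (FTL) had an unadjusted p under 0.05, as did 816 of all 13331 genes. FTH1, FTL, TFRC and IREB2 had all 3 Ang cell libraries above all 3 Con libraries. Of all tested genes 7.8% separated in this direction and 14.2% in either direction. The difference of the members from that share was not tested. With raw totals in place of trimmed mean scaling FTH1 overlapped and 3 of the 7 remained. The intervals of 2 SE in cells ran from -0.03 to 0.10 for FTH1, 0.03 to 0.19 for FTL, and -0.03 to 0.21 for TFRC on the log2 scale. They are approximate and not adjusted for the number of genes, and FTL was not called although its interval left out 0.

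In exosomes the members again showed no call between Ang and Con. The log2 fold change was -0.0016 ± 0.0725 (SE) for FTH1, 0.08 ± 0.0781 for FTL, -0.14 ± 0.510 for TFRC, 0.01 ± 0.444 for IREB2, -0.26 ± 1.47 for ACO1, -0.25 ± 0.550 for NCOA4 and -0.07 ± 0.426 for STEAP3. All had an adjusted p of 0.999 over 8327 genes (edgeR), none had an unadjusted p under 0.05, and DESeq2 called none. The same tools called 0.012% and 0.204% of all genes. No member separated the 3 Ang from the 3 Con libraries, which 10.8% of genes did. For FTH1 and FTL the intervals of 2 SE were narrow, from -0.15 to 0.14 and from -0.08 to 0.23 on the log2 scale. For TFRC, on 12 to 29 reads, the interval of 2 SE ran from -1.16 to 0.88. These data do not tell apart changes of TFRC inside these bounds.

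**Figure D4:**
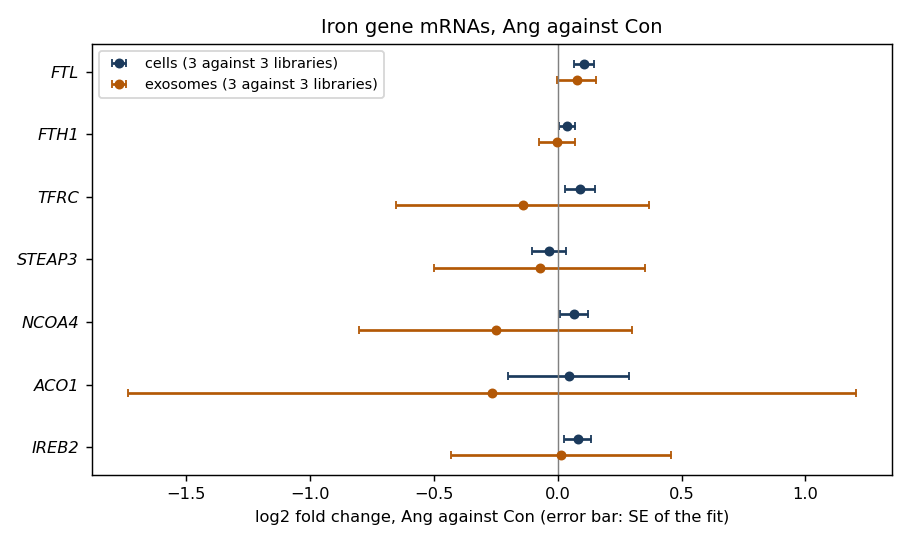
Log2 fold change of the 7 genes in Ang against Con (horizontal axis), in cells (dark blue) and in exosomes (orange), each from a fit to 6 libraries; error bars are the SE of the fit. FTH1 and FTL lie near 0 with short bars in both compartments, and the exosome bars of TFRC, IREB2, NCOA4, STEAP3 and ACO1 are long.

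The difference of the Ang against Con change between exosomes and cells was tested itself. It was smallest for FTL at -0.04 ± 0.105 (SE) and largest for NCOA4 at -0.34 ± 0.590 and ACO1 at -0.32 ± 1.30 on the log2 scale. TFRC was at -0.24 ± 0.377, IREB2 at -0.08 ± 0.432, FTH1 at -0.05 ± 0.0983 and STEAP3 at -0.05 ± 0.362. None of the 7 was called by edgeR or DESeq2, which called 0.0254% and 3.12% of all genes, and none had an unadjusted p under 0.05 in edgeR.

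Another 94 genes of iron metabolism were examined by role, of which 86 were listed in cells and 73 in exosomes. Exosomes differed from cells for 26 of the 73 tested, 16 higher and 10 lower, and 47 were not called. This was close to the 37.1% called over all genes (17.6% higher and 19.5% lower), and the median log2 fold change was -0.12, against -0.15 over all genes. The counts by role are small and are to be read against the same shares. The plot by role list places them beside the 7 members.

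**Figure D5:**
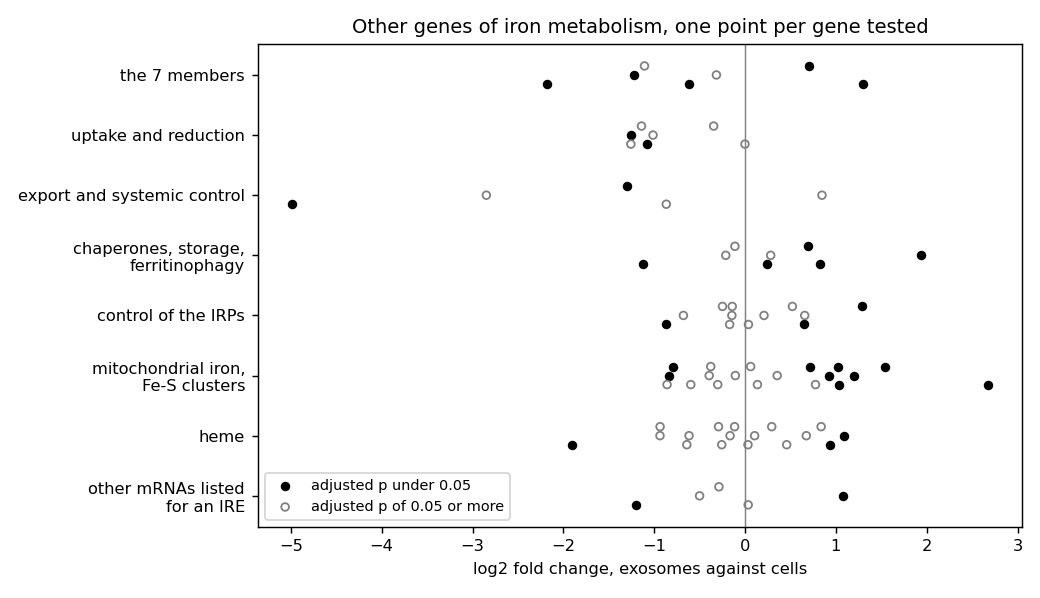
Log2 fold change in exosomes against cells (horizontal axis) for the 7 members and for 73 other iron genes, grouped by role; each point is 1 gene, filled where the adjusted p (edgeR) is under 0.05 and open otherwise. Points of the list for uptake and reduction lie at or left of 0, with the 2 called genes at -1.08 and -1.25, and the mitochondrial list has 7 called genes to the right and 2 to the left.

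Among genes of uptake and iron reduction, 2 of 7 tested were lower in exosomes (19.5% of all genes were) and none was higher. CYBRD1, a ferric reductase of the plasma membrane, was at -1.08 ± 0.175 (SE) on the log2 scale. SLC39A8, a metal importer, was at -1.25 ± 0.360 on only 1 to 9 exosome reads. Of the export and systemic genes, 2 of 5 were lower and none higher. ERFE, the erythroferrone gene, was at -1.30 ± 0.369 on only 1 to 6 exosome reads. SLC40A1, the iron exporter ferroportin, had 81 to 106 reads in each cell library and 0 in 5 exosome libraries, with 7 reads in Con 2.

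The chaperones and ferritin turnover genes had 4 of 8 higher and 1 lower, beside 17.6% and 19.5% of all genes. PCBP1, an iron chaperone that loads ferritin, was at 0.69 ± 0.130 (SE), and its relative PCBP4 was at 0.83 ± 0.245. HERC2, a ubiquitin ligase that targets NCOA4, was at -1.13 ± 0.148. BOLA2, a partner in iron-sulfur trafficking, was at 1.93 ± 0.351 on 6 to 21 exosome reads. BOLA2 and HERC2 have near-identical copies in the genome, so that their counts are uncertain. PCBP2, the most abundant gene of the list, was also called, at 0.25 ± 0.0759.

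For genes that control the iron regulatory proteins, 2 of 12 were higher and 1 lower. CIAO2A, which serves the iron-sulfur cluster of ACO1, was at 0.65 ± 0.187 (SE). NUBP2, of the cytosolic cluster assembly scaffold, was at 1.29 ± 0.338, and CUL1, of the ligase that degrades IREB2, was at -0.87 ± 0.175. SKP1 of the same ligase was at 0.04 ± 0.120 and was not called.

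Mitochondrial iron and cluster genes had 7 of 19 higher and 2 lower, again beside 17.6% and 19.5% of all genes. The ferredoxin FDX2 was at 2.67 ± 0.439 (SE), on 5 to 28 exosome reads, and its reductase FDXR at 1.54 ± 0.319. The iron importer SLC25A28 was at 1.20 ± 0.357, on 2 to 19 exosome reads. The related importer SLC25A37 was at -0.84 ± 0.277. Of the heme genes, 2 of 17 were higher and 1 lower. UROS of heme synthesis was at 1.09 ± 0.324 and BLVRB of bilirubin formation at 0.94 ± 0.237. CPOX of heme synthesis was at -1.90 ± 0.645, on 0 to 15 exosome reads. Of 5 other mRNAs listed as reported carriers of an iron-responsive element, EPAS1, a hypoxia-inducible factor, was at 1.08 ± 0.159 and CDC42BPA, a kinase, at -1.20 ± 0.111, while the other 3 were not called.

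Matches to the hairpin pattern were also counted over all genes of this comparison. Of 21 tested genes with a match in the 5′ untranslated region, 5 were higher and 3 lower in exosomes, with a median log2 fold change of 0.05. Of 99 with a match in the 3′ untranslated region, 15 were higher and 28 lower, with a median of -0.29. Of 90 with a match in the coding part, 19 were higher and 20 lower, with a median of -0.10. Over all 11811 genes tested 17.6% were higher and 19.5% lower, with a median of -0.15, and no difference between these classes and other genes was tested.

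Between Ang and Con, edgeR called none of 81 other iron genes in cells and none of 55 in exosomes, and DESeq2 called none. In each compartment 4 of them had an unadjusted p under 0.05 in edgeR. Of all genes 816 of 13331 did in cells and 316 of 8327 in exosomes. Abundant genes of these lists in cells were PCBP2 (log2 0.0024 ± 0.0922, SE), CDC42BPA (-0.05 ± 0.0434), CYBRD1 (0.05 ± 0.0658), SKP1 (0.32 ± 0.105, adjusted p = 0.795), UROD (0.09 ± 0.0820) and NEO1 (0.29 ± 0.610). For the difference between compartments edgeR called none of 73, with 7 at an unadjusted p under 0.05, beside 971 of all 11811 genes. DESeq2 called 3 of 73, where it called 3.12% of all genes: the metal importer SLC39A14 (adjusted p = 0.00122), BLVRA of bilirubin formation (0.0473) and IBA57 of cluster assembly (0.0219). In edgeR their adjusted p was 0.514, 0.563 and 0.514, and they are named here after their values were seen.

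The genes whose profile over the 12 libraries was most like that of the ferritins were abundant mRNAs of other functions. Likeness was the root mean square difference of log2 CPM after each gene's mean was removed, over 5905 genes at or above the median level. For FTH1 they included the elongation factor EEF2 (0.077) and the transcription regulator CITED2 (0.083), against a median of 0.84 over all genes. For FTL they were RPS15A (0.065), CLIC1 (0.068) and ACTB (0.070), against a median of 0.64. For TFRC they were the basement membrane gene NID1 (0.24), CCN1 (0.28) and the nuclear pore gene NUP188 (0.34), against a median of 1.2. NID1 was at -2.03 ± 0.136 (SE) on the log2 scale in exosomes against cells. All of these profiles include the difference between cells and exosomes.

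Circular RNA reads inside the members were nearly absent. The deposited junction counts held 1 junction inside the 7 genes, in ACO1, with 2 reads in Ang cells 3.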

How the data were processed

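RNA of AC16 cells and exosomes was sequenced in 12 libraries, 3 for each of 4 groups taken from the sample titles. The authors deposited whole-number read counts per gene, and counts of back-splice junctions, per the file headers. HISAT2, StringTie and GRCh38 are named in the submitters' processing notes. How reads were counted, with which strand setting and annotation release, is not given in the sources used. Kits are per the labels' protocols: a miRNeasy Micro and a VAHTS Universal kit for cells, an exoRNeasy Maxi and a SMARTer Stranded kit for exosomes.

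Counts were tested with edgeR 4.0.16 in R 4.3.3 (robust quasi-likelihood F test, TMM scaling, that is by the trimmed mean of M-values, and the filterByExpr limits of 10 reads per library and 15 in total). Tests were two-sided, with Benjamini-Hochberg adjustment over all genes tested and a threshold of 0.05. Ang was compared with Con in 6 cell and in 6 exosome libraries. Exosomes against cells, and the difference of the Ang against Con change, were fitted to 12 libraries over the 11940 genes that cells and exosomes share. All 7 members passed every low-count filter. The SE is the log2 fold change divided by the square root of F. CPM in the text are on the scale of the fit to 12 libraries, except the marker sums, which are on raw totals. Fits were checked on simulated data.

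Alternatives were DESeq2 1.42.0, other scalings, no low-count filter, a replicate term, leaving out libraries, and fits to other sets of libraries. Gene positions, exon lengths and hairpin matches came from GENCODE release 29 on GRCh38, the length being the union of exons of basic coding transcripts. Other iron genes named in the text were the 3 higher and 3 lower called genes of largest fold in each list, or its most abundant gene where none was called. PCBP2 and SKP1 between compartments were named in addition, and some genes that these rules pick are not reported here. The members and lists were chosen with earlier results of these data known.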

Additional observations from a re-analysis of the deposited data

How the results depend on the processing

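FTH1, FTL, TFRC and STEAP3 kept direction and call between exosomes and cells under all 20 alternatives, with log2 fold changes of 1.27 to 1.33, 0.67 to 0.74, -2.31 to -2.05 and -1.35 to -1.14. IREB2 lost its call in 13 of 20, and its cause was not tested. Spread between exosome libraries was near counting error for FTH1 (2.52% against 2.61% of the mean) and TFRC (27.5% against 23.3%), and above it for FTL (5.81% against 2.41%), STEAP3 (25.9% against 18.1%), IREB2 (33.6% against 16.2%), NCOA4 (48.3% against 13.1%) and ACO1 (78.6% against 17%). No member was called between Ang and Con under any alternative.

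Over all genes, same-numbered libraries hardly deviated together: correlations of their deviations ran from -0.044 to 0.017, and 2 of 12 pairs correlated best with their own number. A correlation over all genes cannot exclude a pairing. Among members in exosomes, IREB2 rose with the replicate number in Con and in Ang, and ACO1 was lowest in number 2 of both. STEAP3 rose with the number in Con and fell in Ang. With the replicate number as a block, edgeR called 0 genes between Ang and Con in cells, 0 in exosomes and 1 for the difference between compartments, and IREB2 was at -0.0095 between Ang and Con exosomes. The calls of the members did not change.

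Counts over all genes moved as follows, and the cause was not tested. DESeq2 called 50 genes between Ang and Con cells (edgeR 0), 13 in exosomes (edgeR 1), 368 for the difference between compartments (edgeR 3), and 3 of the other iron genes for that difference (edgeR 0). Without the low-count filter 3 genes were called in exosomes, and a fit to 12 libraries called 22. Upper quartile scaling called 5 for the difference. Between compartments 4380 genes and 26 other iron genes were called, against 2412 and 16 within Con and 2571 and 15 within Ang, where fewer libraries enter each contrast. Leaving out each library in turn gave 0 to 3 genes in cells, 1 to 4 in exosomes and 1 to 17 for the difference. Without exosome Con 2 and Ang 2, chosen after seeing the data, these were 0 in exosomes and 36 for the difference.

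Reversals of sign concerned values that never passed the test. Between Ang and Con exosomes, FTH1 was at 0.0033 with relative log expression scaling and 0.0033 in DESeq2. Without exosome Con 2 and Ang 2, IREB2 was at -0.00044 and NCOA4 at 0.35, and NCOA4 was at 0.27 for the difference. Leaving out each library in turn gave, in cells, -0.087 to 0.26 for ACO1 and -0.072 to 0.012 for STEAP3. In exosomes it gave -0.033 to 0.028 for FTH1, -0.42 to 0.11 for TFRC, -0.29 to 0.28 for IREB2, -0.86 to 0.42 for ACO1, -0.75 to 0.13 for NCOA4 and -0.31 to 0.16 for STEAP3. For the difference it gave -0.089 to 0.0023 for FTL, -0.51 to 0.0031 for TFRC, -0.38 to 0.19 for IREB2, -0.91 to 0.35 for ACO1, -0.84 to 0.043 for NCOA4 and -0.29 to 0.18 for STEAP3.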
